A study of Mus musculus with 28 samples.

Results

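Kidney messenger RNA from db/db mice given semaglutide for 8 weeks was compared with that from untreated db/db mice. Of the 28 libraries of the series, 16 were from kidney and 8 enter this comparison, 4 from semaglutide kidneys and 4 from control kidneys. They were taken by their labels, and no measured value was used to choose them. All mice were male C57BL/KsJ db/db mice, which lack a working leptin receptor and become obese and diabetic, and all were 8 weeks old when the intervention began. The semaglutide mice had subcutaneous injections once daily. The sample titles give 0.05 mg/kg and the protocol 30 nmol/kg, amounts that differ, and which of them was injected is open. The control mice stayed sedentary with no treatment. The other 8 kidney libraries, 4 from mice given semaglutide plus high-intensity interval training, HIIT, on a motorised treadmill (combined) and 4 from mice given HIIT alone, show the same drug in trained mice and share no library with the first comparison. The labels name no lean and no vehicle-injected group, so the drug is measured on a diabetic background only. Nothing in the labels ties the replicates to separate animals, and p-values measure the spread between these libraries.

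Semaglutide is a long-acting agonist of the receptor for glucagon-like peptide 1 (GLP-1), a gut hormone that raises insulin secretion, slows gastric emptying and lowers food intake. The receptor signals through cyclic AMP and protein kinase A. In the kidney it is found mainly in vessels, and its agonists are known to promote sodium excretion and to lower albuminuria in diabetes. The kidney tubule itself burns fatty acids, makes glucose and ketone bodies, and carries out the last step of vitamin D activation.

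Levels are FPKM (fragments per kilobase of transcript and of mapped fragments, scaled to library size) after a median-ratio scaling of the 16 libraries. Group values are means ± SD over 4 libraries. Differences are semaglutide minus control in log2(FPKM + 1), followed by ± and the standard error (SE), and they understate the change of weakly expressed genes. Of 23650 rows, 21797 carried a gene name, and 11551 genes that reached 1 FPKM in 4 or more kidney libraries were tested with limma. Summed FPKM ran from 535483 to 603660 in semaglutide libraries and from 524440 to 581653 in control libraries. FPKM hold no read counts, so the depth behind a value is unknown. Because whole tissue was sequenced, fewer cells of a type and less RNA per cell cannot be told apart.

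One control library stood apart. Control 1 had a median correlation with the other kidney libraries of 0.911, against 0.96 to 0.98 elsewhere. The summed level of 12 macrophage markers was 46.1, 64.01, 30.4 and 76.99 FPKM in semaglutide kidneys, against 2756, 62.4, 43.2 and 34.1 in control kidneys. Jchain, a plasma cell transcript, was at 3.08, 1.499, 0.772 and 3.97 FPKM in semaglutide kidneys, against 961, 0.462, 1.31 and 0.747 in control kidneys, and Lyz2, a macrophage lysozyme, was at 15.8, 28.8, 11.6 and 31.8 FPKM in semaglutide kidneys, against 2064, 28.5, 18.9 and 12.9 in control kidneys. Control 1 alone is high in all 3 measures, and T cell, neutrophil and fibroblast sums were also highest there, while its tubule transcripts were low. Values without control 1 are given beside the results that it moves most. Among semaglutide libraries, semaglutide 4 held fat cell transcripts, with Adipoq at 2.61, 0, 0 and 43.3 FPKM in semaglutide kidneys, against 3.35, 5.43, 1.95 and 0.933 in control kidneys. Semaglutide 2 held the least RNA of the early proximal tubule in its group, with summed markers at 2229.8, 1314, 2763 and 2637 FPKM in semaglutide kidneys, against 1197, 2623, 2625 and 2732 in control kidneys, and the most of the thick ascending limb, at 1344, 1699, 705 and 559 FPKM in semaglutide kidneys, against 363, 885, 757 and 894 in control kidneys. The kidney's own markers were present in every library, among them Slc34a1, the proximal phosphate carrier, at 1107, 632, 1391 and 1436 FPKM in semaglutide kidneys, against 634, 1465, 1432 and 1483 in control kidneys.

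No gene passed a Benjamini-Hochberg adjusted p of 0.05 in limma, with all libraries or without control 1. With all libraries 493 genes (4.27% of those tested) had an unadjusted p under 0.05, 286 of them higher in semaglutide kidneys (2.48%) and 207 lower (1.79%). Without the median-ratio scaling the split was 77 higher and 307 lower, and in combined against HIIT 639 higher and 47 lower, against 387 and 289 with it. Without control 1 there were 527 (4.56%), 256 higher (2.22%) and 271 lower (2.35%). The 2 groups did not overlap in 316 genes (2.74%), 174 higher (1.51%) and 142 lower (1.23%). Without control 1 this held for 783 genes (6.78%), and in combined against HIIT for 481 (4.16%). In a limma fit that gives each library a weight from its own scatter, control 1 received the lowest weight (0.166) and 18 genes passed (0.156%), 10 higher (0.0866%) and 8 lower (0.0693%), with 840 (7.27%) at unadjusted p under 0.05. Those 18 are described below as changed in the weighted fit, and 15 of them had no overlap between the groups. Without the median-ratio scaling the median of all genes was -0.14, and 10 of the 43 list medians then changed sign, all of them at or under 0.16 in size.

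The opposing enzymes of vitamin D activation had large differences of opposite sign. Cyp27b1 makes the active form of vitamin D in the proximal tubule, and Cyp24a1 breaks it down. Cyp27b1 was at 80.03, 42.8, 55.1 and 68.6 FPKM in semaglutide kidneys, against 13.5, 21.4, 6.53 and 13.1 in control kidneys. Every semaglutide kidney lay above every control kidney. The log2 difference was 2.16 ± 0.37 (limma adjusted p = 0.0695), 2.19 ± 0.40 without control 1 and 2.46 ± 0.38 in the weighted fit, where Cyp27b1 rose (adjusted p = 0.016). Cyp24a1 was at 10.7, 1.46, 48.2 and 9.39 FPKM in semaglutide kidneys, against 28.3, 78.7, 110.2 and 74.9 in control kidneys. Semaglutide 3 lay above control 1 and below the other 3 controls, so the groups overlapped. Its log2 difference was -2.60 ± 0.67 (limma adjusted p = 0.492) and -2.99 ± 0.69 without control 1, and it fell in the weighted fit (adjusted p = 0.0383). Pfdn4 lies across Cyp24a1 on the other strand, so reads of the pair may be mixed.

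The promoter of Cyp27b1 is shown because this gene had the largest positive difference of those named. It is the RefSeq sequence of build GRCm38.p6 from 250 bases before to 50 after the gene's start, at chr10:127047996-127048295 on the plus strand, and capitals mark a CCAAT box on the opposite strand, which reads as ATTGG here.
Cyp27b1: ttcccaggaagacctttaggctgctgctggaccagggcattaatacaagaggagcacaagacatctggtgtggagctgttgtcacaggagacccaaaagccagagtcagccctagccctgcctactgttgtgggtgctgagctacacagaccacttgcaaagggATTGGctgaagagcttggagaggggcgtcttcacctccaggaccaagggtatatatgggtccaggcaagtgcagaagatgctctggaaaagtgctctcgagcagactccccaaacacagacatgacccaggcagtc
It begins at position -86 relative to the start. CCAAT on either strand was found in 37.4% of 32851 promoters of this length, and neither strand of this window holds the cAMP response element core TGACG, which 20.8% of promoters hold.

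Other genes of mineral handling had lower levels in most semaglutide kidneys. Slc8a1, the sodium-calcium exchanger that moves calcium out of distal tubule cells, was at 4.18, 2.23, 6.09 and 3.37 FPKM in semaglutide kidneys, against 4.58, 8.53, 9.59 and 8.85 in control kidneys. Control 1 was the lowest control and lay inside the semaglutide range. The log2 difference was -0.85 ± 0.24, and -1.06 ± 0.22 without control 1, and Slc8a1 fell in the weighted fit (limma adjusted p = 0.0325). Calb1, the calcium buffer calbindin of the same cells, averaged 78.2 ± 44.9 FPKM in semaglutide kidneys, against 138 ± 58.9 in control kidneys (log2 difference -0.84 ± 0.41, and -1.26 ± 0.35 without control 1). Vdr, Kl and Slc34a1 were chosen after their values were seen. Vdr, the vitamin D receptor, had a log2 difference of -0.40 ± 0.23, and -0.57 ± 0.23 without control 1. Kl, the phosphate hormone co-receptor Klotho, had a log2 difference of -0.38 ± 0.29, and -0.67 ± 0.24 without control 1. The phosphate carrier Slc34a1 differed by less than its error (log2 difference -0.12 ± 0.31), and by -0.42 ± 0.27 without control 1.

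Of the 24 genes listed for phosphate, calcium and vitamin D, 22 were tested and 7 had a higher mean with semaglutide. At unadjusted p under 0.05, 1 was higher and 2 were lower, against 2.48% and 1.79% of all genes. Without control 1 these were 1 and 7, against 2.22% and 2.35%. Their median log2 difference was -0.12, and -0.24 without control 1, beside medians of all genes of 0.00 and 0.01. Without semaglutide 2, which held the least early proximal tubule RNA of its group, the median of the list was -0.02. In the weighted fit 3 members passed, Cyp27b1, Cyp24a1 and Slc8a1. In combined against HIIT kidneys the list had 0 members higher and 6 lower at unadjusted p under 0.05, where 3.35% and 2.5% of all genes were, with a median of -0.29. Vdr had a log2 difference of -0.66 ± 0.23 there, and the calcium channel gene Trpv5 -0.90 ± 0.38.

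**Figure D1:**
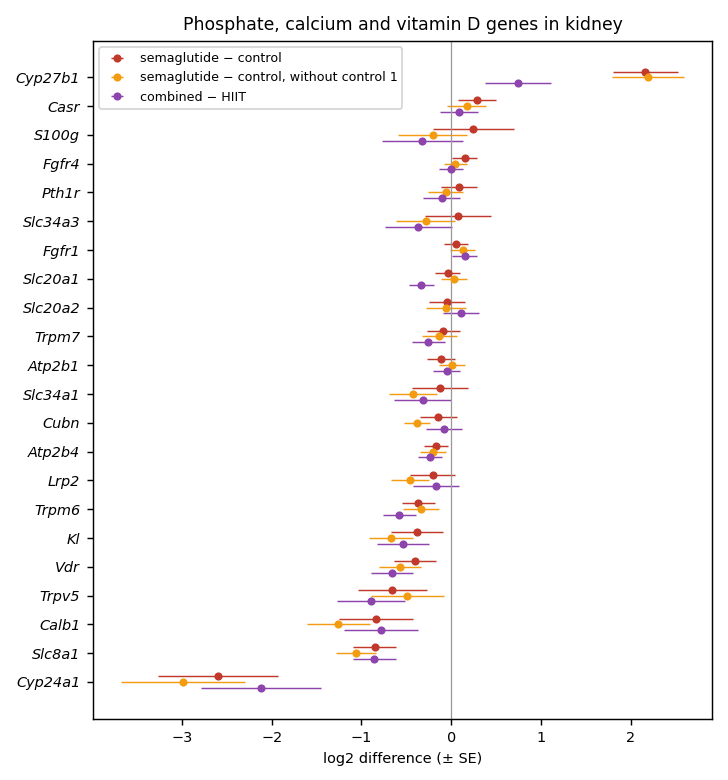
Log2 difference with its SE (horizontal axis) for the 22 tested genes of phosphate, calcium and vitamin D handling, for semaglutide minus control, the same without control 1, and combined minus HIIT. Cyp27b1 lies at 2.16 and Cyp24a1 at -2.60 in semaglutide minus control, and most other genes lie near or left of 0.

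Genes of ketone and fatty acid use were mostly higher with semaglutide. Aacs, which activates the ketone body acetoacetate for lipid synthesis in the cytosol, was at 15.98, 10.7, 26.9 and 12.5 FPKM in semaglutide kidneys, against 5.79, 6.95, 5.899 and 5.41 in control kidneys. The groups did not overlap, semaglutide 3 was the highest, and Aacs rose in the weighted fit (log2 difference 1.31 ± 0.19, limma adjusted p = 0.0109). Its difference in trained mice was 0.78 ± 0.23.

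Among the fatty acid oxidation genes, the omega-hydroxylase Cyp4a10 was at 506, 688, 527 and 505 FPKM in semaglutide kidneys, against 143, 356, 382 and 408 in control kidneys. All 4 semaglutide kidneys lay above all controls (log2 difference 0.88 ± 0.26, and 0.53 ± 0.15 without control 1), although reads may be shared with near-identical Cyp4a copies. Slc25a20, which carries acylcarnitines into mitochondria, averaged 39.6 ± 6.54 FPKM in semaglutide kidneys, against 25.8 ± 4.67 in control kidneys (log2 difference 0.61 ± 0.16), without overlap. Cpt1b, a carnitine palmitoyltransferase of the mitochondrial surface, averaged 11.9 ± 6.72 FPKM in semaglutide kidneys, against 5.53 ± 2.37 in control kidneys (log2 difference 0.93 ± 0.30), and 1 semaglutide library lay within the control range. Ppara, the receptor that switches on many of these genes, was chosen after its values were seen. It averaged 1.72 ± 1.15 FPKM in semaglutide kidneys, against 1.69 ± 0.246 in control kidneys, and differed by -0.08 ± 0.27, and by -0.04 ± 0.29 without control 1.

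Of 38 tested genes of fatty acid oxidation and ketogenesis, 32 had a higher mean with semaglutide, and 11 were higher and 0 lower at unadjusted p under 0.05, against 2.48% and 1.79% of all genes. Others past it were Cyp4a14, Cpt2, Acot2, Acadl, Decr1, Eci2 and Crat, with differences of 0.28 to 0.96. The median was 0.25. Without control 1 it was 0.10, with 25 means higher, 7 members higher and 1 lower at that p (2.22% and 2.35% of all genes). In combined against HIIT kidneys the median was 0.23, with 31 means higher, 6 members higher and 1 lower (3.35% and 2.5% of all genes). The summed level of the list was 4908, 5008, 5211 and 4797 FPKM in semaglutide kidneys, against 2247, 4372, 4257 and 4691 in control kidneys. All semaglutide libraries lay above all controls, and control 1 was far below the other 3.

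**Figure D2:**
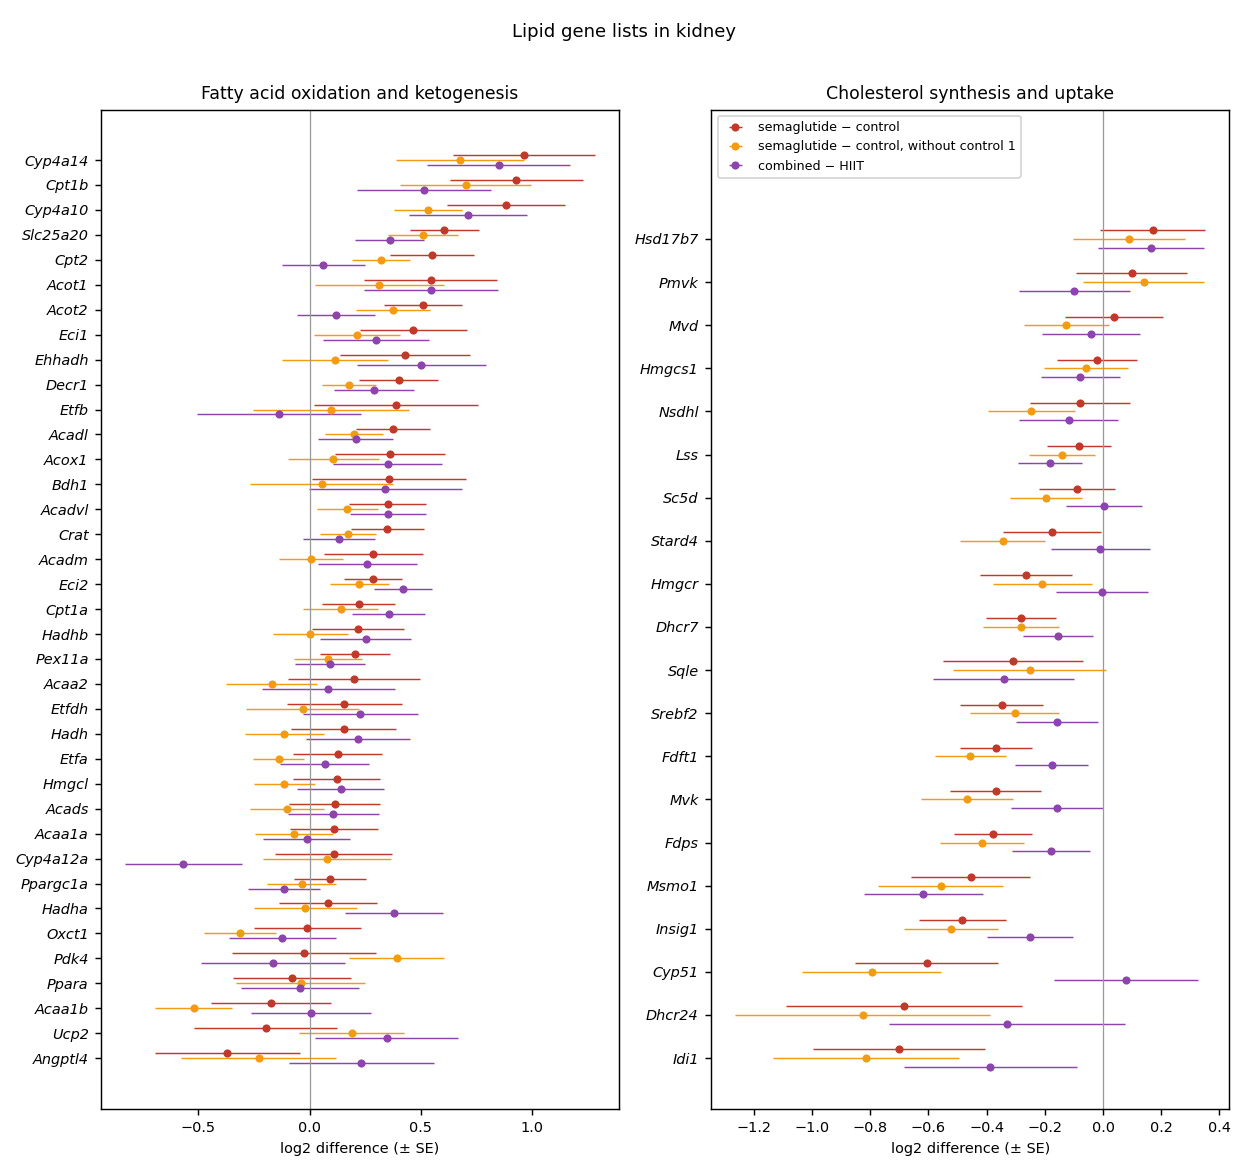
Log2 difference with its SE (horizontal axis) for tested genes of 2 lists, fatty acid oxidation and ketogenesis (left) and cholesterol synthesis and uptake (right), in 3 fits. Cyp4a10 stands at 0.88 in semaglutide minus control, and most cholesterol genes lie left of 0 in that comparison.

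Cholesterol synthesis and uptake genes were mostly lower with semaglutide. Insig1, the membrane protein that holds back the sterol-sensing transcription factor complex, was at 14.1, 8.805, 8.27 and 7.797 FPKM in semaglutide kidneys, against 12.5, 15.1, 11.8 and 15.5 in control kidneys. Semaglutide 1 overlapped the controls and the other 3 lay below them (log2 difference -0.48 ± 0.15). Fdft1, squalene synthase, averaged 7.19 ± 0.757 FPKM in semaglutide kidneys, against 9.61 ± 1.45 in control kidneys (log2 difference -0.37 ± 0.12), and Cyp51, which demethylates lanosterol, averaged 7.08 ± 3.04 FPKM in semaglutide kidneys, against 11.03 ± 2.898 in control kidneys (log2 difference -0.61 ± 0.25). Both overlap another gene on the opposite strand, Ctsb for Fdft1 and Akap9 for Cyp51.

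Of the 21 tested genes, 3 had a higher mean with semaglutide and 18 a lower one. At unadjusted p under 0.05, 0 were higher and 10 lower (2.48% and 1.79% of all genes), with a median of -0.31. Others past it were Fdps, Srebf2, Idi1, Mvk, Dhcr7 and Msmo1. Without control 1 the counts were 0 and 10 (2.22% and 2.35% of all genes) and the median was -0.30. In trained mice the median was -0.16 with 0 members higher and 1 lower, the sterol oxidase Msmo1 (log2 difference -0.62 ± 0.20). Whether the list's difference itself changed with training was not tested.

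Lipid storage genes pointed the other way. Plin5, a droplet coat protein of oxidative tissues, was at 2.58, 2.61, 2.83 and 4.48 FPKM in semaglutide kidneys, against 0.807, 1.699, 0.8292 and 1.62 in control kidneys. All semaglutide libraries were above all controls and semaglutide 4 was the highest (log2 difference 0.88 ± 0.17, limma adjusted p = 0.14). G0s2, an inhibitor of the main triglyceride lipase, averaged 62.1 ± 8.46 FPKM in semaglutide kidneys, against 36.5 ± 13.9 in control kidneys (log2 difference 0.80 ± 0.28), and Mogat1, an acyltransferase of triglyceride synthesis, averaged 65.6 ± 9.92 FPKM in semaglutide kidneys, against 45.1 ± 13.7 in control kidneys (log2 difference 0.58 ± 0.20, and 0.34 ± 0.15 without control 1). G0s2 and Mogat1 overlapped between the groups. In trained mice Plin5, G0s2 and Mogat1 differed by 0.36 ± 0.17, -0.47 ± 0.28 and 0.06 ± 0.20. Plin4, an adipocyte droplet protein, was at 2.02, 1.82, 0.259 and 6.28 FPKM in semaglutide kidneys, against 0.776, 1.15, 0.557 and 0.577 in control kidneys. Semaglutide 4 was the highest and semaglutide 3 the lowest of all 8. Angptl8, an insulin-induced inhibitor of lipoprotein lipase that was chosen after its values were seen, was at 2.71, 2.43, 3.16 and 5.69 FPKM in semaglutide kidneys, against 1.07, 2.301, 0.673 and 1.09 in control kidneys (log2 difference 0.97 ± 0.27), with no overlap. In trained mice its difference was 0.00 ± 0.27.

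Of the 21 tested lipid droplet and fatty acid uptake genes, 20 had a higher mean with semaglutide. At unadjusted p under 0.05, 5 were higher and 0 lower (2.48% and 1.79% of all genes), with a median of 0.36. Without control 1 these were 19 means, 4 and 0 (2.22% and 2.35% of all genes), and 0.23. The fatty acid and triglyceride synthesis list had 12 of 21 means higher, 4 members higher and 1 lower at that p, and a median of 0.18. Fasn, fatty acid synthase, was at 3.67, 3.41, 4.25 and 15.6 FPKM in semaglutide kidneys, against 2.905, 2.95, 3.0004 and 2.72 in control kidneys. All 4 semaglutide libraries lay above the controls, but most of the mean came from semaglutide 4. The log2 difference was 0.74 ± 0.31, and 0.29 without semaglutide 4, when the median of the list was -0.07. That library held the fat cell transcripts Adipoq, given above, and Fabp4, at 35.7, 51.6, 10.7 and 343 FPKM in semaglutide kidneys, against 62.4, 51.6, 37.05 and 30.2 in control kidneys. The summed level of 11 adipocyte markers, leaving out Pck1, which the tubule also expresses, was 64.03, 57.3, 14.3 and 711 FPKM in semaglutide kidneys, against 91.2, 110.4, 62.8 and 52.0 in control kidneys. Semaglutide 4 alone stood far above the rest. The median difference of the adipocyte list was 0.20, and -0.67 without semaglutide 4. Adipoq was at 0 in semaglutide 2 and 3. Without semaglutide 4 the median of the lipid droplet list was 0.24.

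An antagonist of bone morphogenetic proteins (BMPs) was lower in semaglutide kidneys. BMPs are growth factors that maintain tubule differentiation and oppose fibrosis, and Grem1 encodes a secreted protein that binds and blocks them. Grem1 was at 0.1295, 0.02495, 0.102 and 0.254 FPKM in semaglutide kidneys, against 2.72, 3.76, 1.83 and 5.67 in control kidneys. Both groups were low, and the highest semaglutide library lay far below the lowest control. The log2 difference was -1.93 ± 0.32 (limma adjusted p = 0.0695), -1.99 ± 0.35 without control 1, and Grem1 fell in the weighted fit (log2 difference -1.97 ± 0.33, adjusted p = 0.0226).

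Targets of BMP signalling were measured in the same kidneys, and most of them were chosen after their values were seen. The Id genes encode inhibitors of helix-loop-helix transcription factors and are induced by BMPs. Id4 was at 10.3, 16.2, 9.12 and 6.22 FPKM in semaglutide kidneys, against 4.56, 4.52, 4.13 and 3.58 in control kidneys, without overlap, and rose in the weighted fit (log2 difference 1.14 ± 0.20, limma adjusted p = 0.0325). Id2 was at 163, 163, 219 and 147 FPKM in semaglutide kidneys, against 86.2, 97.04, 111 and 74.8 in control kidneys, again without overlap (log2 difference 0.90 ± 0.21). Id1 averaged 33.97 ± 8.94 FPKM in semaglutide kidneys, against 20.5 ± 5.24 in control kidneys (log2 difference 0.70 ± 0.28), and Id3 averaged 55.9 ± 12.2 FPKM in semaglutide kidneys, against 31.2 ± 9.64 in control kidneys (log2 difference 0.84 ± 0.23). Both overlapped between the groups. Smad7, an inhibitor of the BMP and TGF-beta signal that the signal itself induces, averaged 3.96 ± 0.435 FPKM in semaglutide kidneys, against 2.88 ± 0.4197 in control kidneys (log2 difference 0.36 ± 0.12), and the related Smad6 had a log2 difference of 0.30 ± 0.17, and 0.18 ± 0.16 without control 1. The ligand genes Bmp4, Bmp6 and Bmp7 differed by 0.39 ± 0.16, -0.13 ± 0.15 and 0.02 ± 0.15, and Bmp7 by -0.16 ± 0.11 without control 1. Only Bmp4 of the 3 had no overlap. Sfrp1, a secreted inhibitor of Wnt ligands, was at 9.92, 10.6, 14.1 and 11.8 FPKM in semaglutide kidneys, against 15.4, 19.2, 19.8 and 18.1 in control kidneys. All semaglutide kidneys were below all controls, and Sfrp1 fell in the weighted fit (log2 difference -0.72 ± 0.13, limma adjusted p = 0.0325).

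The promoters of Grem1, Id2 and Id4 are shown because their differences had opposite signs in the same kidneys. The windows are RefSeq sequence of GRCm38.p6, 250 bases before to 50 after the start, at chr2:113758599-113758898 on the minus strand, chr12:25096043-25096342 on the minus strand and chr13:48260866-48261165 on the plus strand. Capitals mark GGCGCC, an element bound by BMP-activated SMADs, CCAAT or its opposite strand ATTGG, and the cAMP response core TGACG or its opposite strand CGTCA.
Grem1: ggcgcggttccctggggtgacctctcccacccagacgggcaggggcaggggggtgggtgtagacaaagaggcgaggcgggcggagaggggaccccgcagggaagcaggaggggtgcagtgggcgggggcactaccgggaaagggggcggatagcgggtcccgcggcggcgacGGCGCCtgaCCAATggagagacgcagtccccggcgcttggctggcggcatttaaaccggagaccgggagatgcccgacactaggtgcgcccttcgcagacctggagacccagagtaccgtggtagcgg
Id2: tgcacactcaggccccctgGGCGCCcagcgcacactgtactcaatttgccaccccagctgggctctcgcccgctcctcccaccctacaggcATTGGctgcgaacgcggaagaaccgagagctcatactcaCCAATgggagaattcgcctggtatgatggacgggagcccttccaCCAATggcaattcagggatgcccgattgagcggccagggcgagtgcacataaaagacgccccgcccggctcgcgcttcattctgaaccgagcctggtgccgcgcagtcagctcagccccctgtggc
Id4: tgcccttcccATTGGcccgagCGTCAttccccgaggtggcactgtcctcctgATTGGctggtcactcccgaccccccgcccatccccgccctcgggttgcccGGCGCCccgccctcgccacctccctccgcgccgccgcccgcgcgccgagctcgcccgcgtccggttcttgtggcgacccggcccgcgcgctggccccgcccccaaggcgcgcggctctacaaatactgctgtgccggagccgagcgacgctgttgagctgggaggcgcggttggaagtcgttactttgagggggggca
GGCGCC begins at position -78 relative to the start in Grem1, at -231 in Id2 and at -148 in Id4, and 11.9% of 32851 promoters hold it. TGACG was matched in Id4 alone of the 3, on the opposite strand at position -229. The full cAMP response element TGACGTCA is held by 1.79% of promoters and by none of the 4 shown. These are matches of letters and say nothing of binding.

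The same BMP genes were read in trained mice. Id4 had a log2 difference of 0.38 ± 0.24 there, and Id1, Id2 and Id3 had -0.07 ± 0.28, -0.23 ± 0.21 and 0.05 ± 0.23. Smad6 and Smad7 differed by -0.04 ± 0.17 and 0.11 ± 0.12. Grem1 was at 1.28, 0.755, 1.88 and 1.73 FPKM in combined kidneys, against 0.805, 4.53, 1.68 and 0.6695 in HIIT kidneys. The groups overlapped. The difference of the semaglutide effect between trained and sedentary mice (interaction) was 1.80 ± 0.46 for Grem1 and -1.13 ± 0.30 for Id2. Their unadjusted limma p were 0.00123 and 0.0019, and after adjustment neither passed.

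Several unrelated genes also had levels that did not overlap. Gstp3, a glutathione transferase of the pi class whose close copies may share its reads, was at 3.51, 4.19, 4.08 and 5.71 FPKM in semaglutide kidneys, against 2.23, 0.291, 0.716 and 0.6398 in control kidneys. Control 1 was the highest control and still below every semaglutide kidney. Gstp3 rose in the weighted fit (log2 difference 1.64 ± 0.26, limma adjusted p = 0.016), and without control 1 its difference of 1.79 ± 0.26 had an adjusted p of 0.0536. Hspa8, the constitutive cytosolic chaperone of the heat shock family, was at 608, 687, 825 and 799 FPKM in semaglutide kidneys, against 346, 369, 336 and 412 in control kidneys. The groups were separated by nearly 200 FPKM, and Hspa8 rose in the weighted fit (log2 difference 0.90 ± 0.15, adjusted p = 0.0226 by limma). Small nucleolar RNA genes lie within Hspa8 on the same strand. In trained mice Hspa8 was at 698, 575, 597 and 583 FPKM in combined kidneys, against 606, 772, 545 and 401 in HIIT kidneys, with overlap. Of the 17 tested heat shock chaperones 14 had a higher mean (median 0.18, and 0.03 with no median-ratio scaling). At unadjusted p under 0.05, 1 was higher, Hspa8, and 0 were lower (2.48% and 1.79% of all genes).

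Tmem252, a membrane protein gene, was at 13.5, 9.23, 7.39 and 8.68 FPKM in semaglutide kidneys, against 5.93, 3.46, 4.49 and 4.53 in control kidneys, and rose in the weighted fit (log2 difference 1.11 ± 0.16, limma adjusted p = 0.0109). Tsc22d1, a leucine zipper factor induced by TGF-beta, was at 178, 154, 166 and 142 FPKM in semaglutide kidneys, against 122, 97.2, 90.6 and 96.8 in control kidneys. All semaglutide libraries were above all controls, and it rose in the weighted fit (log2 difference 0.79 ± 0.10, limma adjusted p = 0.00999). Tgm1, a protein cross-linking transglutaminase, and Fam102a rose in that fit too (log2 difference 0.93 ± 0.16 and 0.62 ± 0.12). Maob, monoamine oxidase B, was chosen after its values were seen and was at 6.96, 8.96, 10.2 and 11.3 FPKM in semaglutide kidneys, against 1.83, 3.74, 2.98 and 4.32 in control kidneys. Its 2 groups did not overlap (log2 difference 1.32 ± 0.25), and it did not pass in either fit.

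Lower levels without overlap were seen for Acpp, an acid phosphatase that also removes phosphate from nucleotides outside the cell, at 0.798, 0.546, 0.641 and 0.747 FPKM in semaglutide kidneys, against 2.34, 2.83, 1.698 and 1.56 in control kidneys. Acpp fell in the weighted fit (log2 difference -0.73 ± 0.13, limma adjusted p = 0.031). The orphan receptor gene Gpr85 was at 0.423, 0.335, 0.795 and 0.443 FPKM in semaglutide kidneys, against 1.22, 1.13, 1.15 and 1.29 in control kidneys, and fell as well (log2 difference -0.57 ± 0.11, limma adjusted p = 0.0389). Spink8, a serine protease inhibitor, averaged 16.5 ± 2.44 FPKM in semaglutide kidneys, against 24.9 ± 6.99 in control kidneys, and fell in the weighted fit (log2 difference -0.67 ± 0.12), with control 1 the one control inside the semaglutide range. Arhgef2, an exchange factor that activates RhoA, averaged 8.32 ± 1.84 FPKM in semaglutide kidneys, against 13.3 ± 1.902 in control kidneys (log2 difference -0.63 ± 0.14), and Niban1, a stress-induced protein, averaged 2.05 ± 0.282 FPKM in semaglutide kidneys, against 3.64 ± 0.453 in control kidneys (log2 difference -0.60 ± 0.14). Neither overlapped between groups, and neither passed in the weighted fit.

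**Figure D3:**
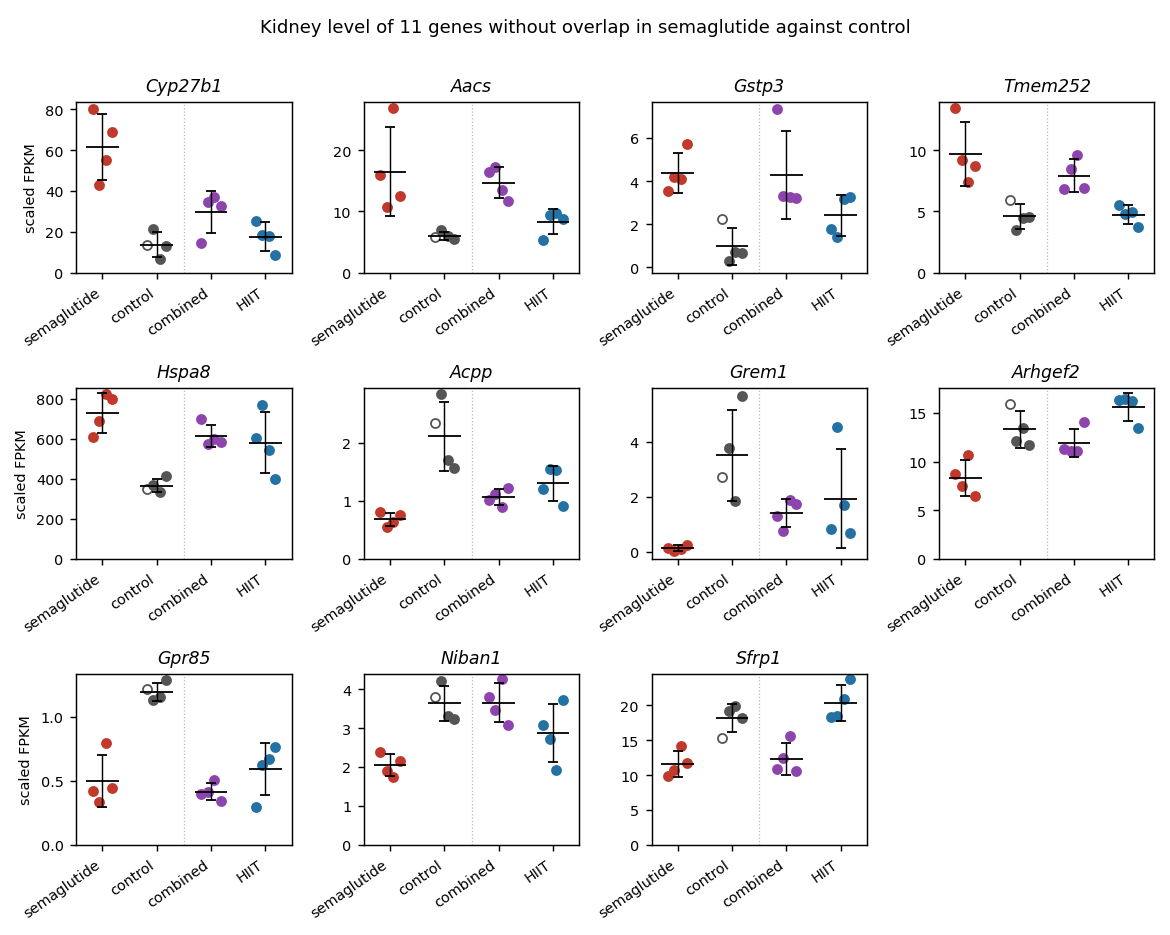
Scaled FPKM (vertical axis) of 11 genes with the smallest p in either direction whose semaglutide and control libraries do not overlap, in all 4 kidney groups of 4 libraries. Points are libraries (control 1 is open), and bars are the mean ± SD. Aacs is also higher in every combined than in every HIIT kidney, while Grem1 and Hspa8 overlap between combined and HIIT.

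The drug's own receptor was scarce. Glp1r was at 0.296, 0.296, 0.344 and 0.432 FPKM in semaglutide kidneys, against 0.261, 0.364, 0.202 and 0.276 in control kidneys, and was below the level for testing. Gipr, the receptor of the related gut hormone, was at 0, 0, 0 and 0.06204 FPKM in semaglutide kidneys, against 0.0824, 0, 0 and 0.00928 in control kidneys, mostly listed at 0. Gcgr, the glucagon receptor, was at 9.08, 11.2, 8.33 and 12.3 FPKM in semaglutide kidneys, against 3.599, 9.44, 7.82 and 8.003 in control kidneys, with control 1 the lowest (log2 difference 0.50 ± 0.23, and 0.24 ± 0.19 without control 1). Of 19 tested genes of GLP-1 receptor, cAMP and protein kinase A signalling, 11 had a higher mean (median 0.06). At unadjusted p under 0.05, 1 was higher and 1 lower, against 2.48% and 1.79% of all genes. The one lower was Pde4b, a cyclic AMP phosphodiesterase (log2 difference -0.62 ± 0.28, and -0.38 ± 0.27 without control 1). Insr, the insulin receptor, was at 8.39997, 18.2, 9.19 and 9.16 FPKM in semaglutide kidneys, against 7.23, 7.44, 8.67 and 8.58 in control kidneys. Semaglutide 2 was far above the rest, and insulin signalling genes had a median of 0.02 with none of 21 past an unadjusted p of 0.05. Lepr, the receptor gene mutated in these mice, averaged 0.645 ± 0.546 FPKM in semaglutide kidneys, against 0.433 ± 0.152 in control kidneys, and was not tested.

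Pck1, the control enzyme of glucose production, was at 1863, 1214, 1773 and 2508 FPKM in semaglutide kidneys, against 462, 1307, 783 and 1149.7 in control kidneys. Semaglutide 2 lay within the control range and the other 3 above it (log2 difference 1.05 ± 0.37, and 0.75 ± 0.34 without control 1). Its difference in trained mice was 0.82 ± 0.37. Slc5a10, a sodium-coupled mannose and fructose carrier of the proximal tubule, was at 297, 305, 373 and 385 FPKM in semaglutide kidneys, against 149.6, 245, 213 and 275 in control kidneys, without overlap (log2 difference 0.65 ± 0.20), and had a log2 difference of 0.69 ± 0.20 in trained mice. Slc5a2 and Slc5a1, the sodium-glucose carriers of the early and late tubule, had log2 differences of 0.13 ± 0.36 and 0.32 ± 0.19, and of -0.20 ± 0.33 and 0.26 ± 0.20 without control 1. Glucose transport and gluconeogenesis genes had 12 of 15 means higher and a median of 0.16. At unadjusted p under 0.05, 2 were higher and 0 lower (2.48% and 1.79% of all genes). Without control 1, 9 means were higher and the median was 0.11. With no median-ratio scaling the median was -0.006.

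No tested gene of the renin-angiotensin or the proximal sodium and acid transport list passed, with or without library weights. Slc9a3, the proximal sodium-proton exchanger that GLP-1 agonists are known to inhibit at the protein level, averaged 24.5 ± 4.25 FPKM in semaglutide kidneys, against 20.02 ± 5.34 in control kidneys (log2 difference 0.30 ± 0.18, and 0.12 ± 0.14 without control 1). Ren1, renin, averaged 99.3 ± 24.96 FPKM in semaglutide kidneys, against 56.8 ± 20.8 in control kidneys (log2 difference 0.84 ± 0.43, and 0.58 ± 0.45 without control 1), and Agt, the angiotensin precursor, averaged 49.1 ± 23.8 FPKM in semaglutide kidneys, against 27.4 ± 6.79 in control kidneys (log2 difference 0.74 ± 0.33). The angiotensin receptor Agtr1a had a log2 difference of -0.26 ± 0.14, and -0.38 ± 0.13 without control 1. The renin-angiotensin list had 5 of 10 means higher and a median of -0.03. At unadjusted p under 0.05, 1 member was higher and 0 lower (2.48% and 1.79% of all genes). Without control 1 the list had 2 means higher and a median of -0.05, with 0 members higher and 3 lower (2.22% and 2.35%). None of the 13 tested proximal sodium and acid transport genes was past that p with all libraries (median -0.02). Without control 1, 0 were higher and 3 lower, namely Car12, Car4 and Pdzk1 (median -0.13), where 2.22% and 2.35% of all genes were.

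Genes of amino acid breakdown and transport had differences of both signs. Acmsd, a tryptophan-degrading enzyme that limits the synthesis of NAD, was at 17.3, 13.2, 27.2 and 27.5 FPKM in semaglutide kidneys, against 21.1, 59.9, 48.2 and 53.6 in control kidneys. Control 1 lay within the semaglutide range and the other 3 controls lay above it (log2 difference -1.03 ± 0.35, and -1.35 ± 0.31 without control 1). In trained mice Acmsd was at 16.6, 14.7, 29.1 and 33.3 FPKM in combined kidneys, against 63.3, 50.9, 69.98 and 34.4 in HIIT kidneys, with no overlap (log2 difference -1.22 ± 0.35). Gatm, the first enzyme of creatine synthesis, averaged 207 ± 109 FPKM in semaglutide kidneys, against 405 ± 160.4 in control kidneys (log2 difference -1.01 ± 0.39, and -1.36 ± 0.36 without control 1), and had a log2 difference of -0.86 ± 0.39 in trained mice. Slc7a8 and Slc6a19, carriers of neutral amino acids, had log2 differences of -0.71 ± 0.32 and -0.61 ± 0.31, and of -0.39 and -0.23 without semaglutide 2. The list had 19 of 34 means higher and a median of 0.02, with 2 members higher and 3 lower at unadjusted p under 0.05 (2.48% and 1.79% of all genes). Without control 1 it had 5 means higher, a median of -0.20, and 0 and 6 members (2.22% and 2.35% of all genes). Early proximal tubule markers, which the same cells express, were lowest in semaglutide 2 among the semaglutide libraries. Without that library the log2 difference was -0.83 for Acmsd and -0.66 for Gatm.

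Distal convoluted tubule and collecting duct markers had lower medians. Of 10 distal convoluted tubule markers 2 had a higher mean (median -0.21, and -0.37 without control 1), and Slc8a1 and Calb1 among them are described above. The median of these markers was -0.08 without semaglutide 2. In combined against HIIT kidneys it was -0.47, with 1 member higher and 3 lower at unadjusted p under 0.05 (3.35% and 2.5% of all genes). Of 10 collecting duct principal cell markers 3 had a higher mean (median -0.10). Without control 1 their median was -0.41, with 0 members higher and 5 lower at unadjusted p under 0.05 (2.22% and 2.35% of all genes). In combined against HIIT kidneys their median was 0.15. Of 10 thick ascending limb markers 9 had a higher mean (median 0.33, and 0.05 without control 1). Aqp2, the vasopressin-regulated water channel, was at 286, 216, 65.1 and 155 FPKM in semaglutide kidneys, against 102, 317, 493 and 275 in control kidneys, with overlap (log2 difference -0.70 ± 0.49, and -1.14 ± 0.45 without control 1). Aqp3, the water channel of the other cell face, had a log2 difference of -0.46 ± 0.27, -0.75 ± 0.22 without control 1, and 0.67 ± 0.27 in trained mice. The interaction of Aqp3 was 1.13 ± 0.38 at an unadjusted limma p of 0.00912, and did not pass. Umod, the thick ascending limb protein uromodulin, was at 815, 772, 361 and 216 FPKM in semaglutide kidneys, against 169, 393, 324 and 388 in control kidneys, and the filtration slit gene Nphs1 averaged 4.77 ± 1.65 FPKM in semaglutide kidneys, against 5.7002 ± 1.63 in control kidneys.

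The medians of immune, complement and matrix genes changed sign when control 1 was left out. Of 14 MHC class II and antigen presentation genes, 0 had a higher mean with all libraries (median -0.73), and 12 had without control 1 (median 0.26). For macrophage markers the counts were 0 and 7 of 7, and the medians -0.91 and 0.18. For genes of fibrosis and matrix they were 3 and 19 of 23, and -0.25 and 0.26. Complement and acute phase genes had 6 of 16 means higher with all libraries (median -0.20, 0 past an unadjusted p of 0.05 in either direction). Without control 1 all 16 tested members had a higher mean, with a median of 0.42 and 5 members higher at that p (2.22% of all genes).

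C3, the central complement protein, was at 27.6, 28.4, 47.9 and 31.9 FPKM in semaglutide kidneys, against 321, 11.3, 9.797 and 8.22 in control kidneys. Each semaglutide library held more than controls 2, 3 and 4 and less than control 1, so the direction depends on that library (log2 difference 0.44 ± 0.85, and 1.67 ± 0.42 without it, limma adjusted p = 0.469). With library weights and control 1 left out, a setting added after seeing the data, C3 was among 20 genes that passed, as were Acmsd and Ccnd1. The fibrinogen chain gene Fga was at 23.1, 21.8, 28.6 and 16.3 FPKM in semaglutide kidneys, against 79.7, 6.42, 8.11 and 8.13 in control kidneys, and showed the same order. Lcn2, an injury marker of the tubule, was at 11.5, 23.5, 7.16 and 7.75 FPKM in semaglutide kidneys, against 483, 3.54, 2.96 and 0.754 in control kidneys (log2 difference 1.94 ± 0.79 without control 1). Havcr1, a more specific marker of proximal tubule injury, was at 0.471, 0.0825, 0.107 and 0.0529 FPKM in semaglutide kidneys, against 99.1, 0.407, 0.071003 and 0.0626 in control kidneys, and was not tested. It was high in control 1 alone of the 8. In trained mice C3 was at 31.8, 31.7, 22.8 and 21.8 FPKM in combined kidneys, against 11.6, 13.5, 15.1 and 64.2 in HIIT kidneys, with HIIT 4 the highest. Tubular injury genes had 8 of 17 means higher and a median of -0.05, and 14 of 17 and 0.35 without control 1. Semaglutide libraries did not stand above controls 2 to 4 in summed macrophage markers in every case (30.4 to 77.0, against 34.1 to 62.4).

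**Figure D4:**
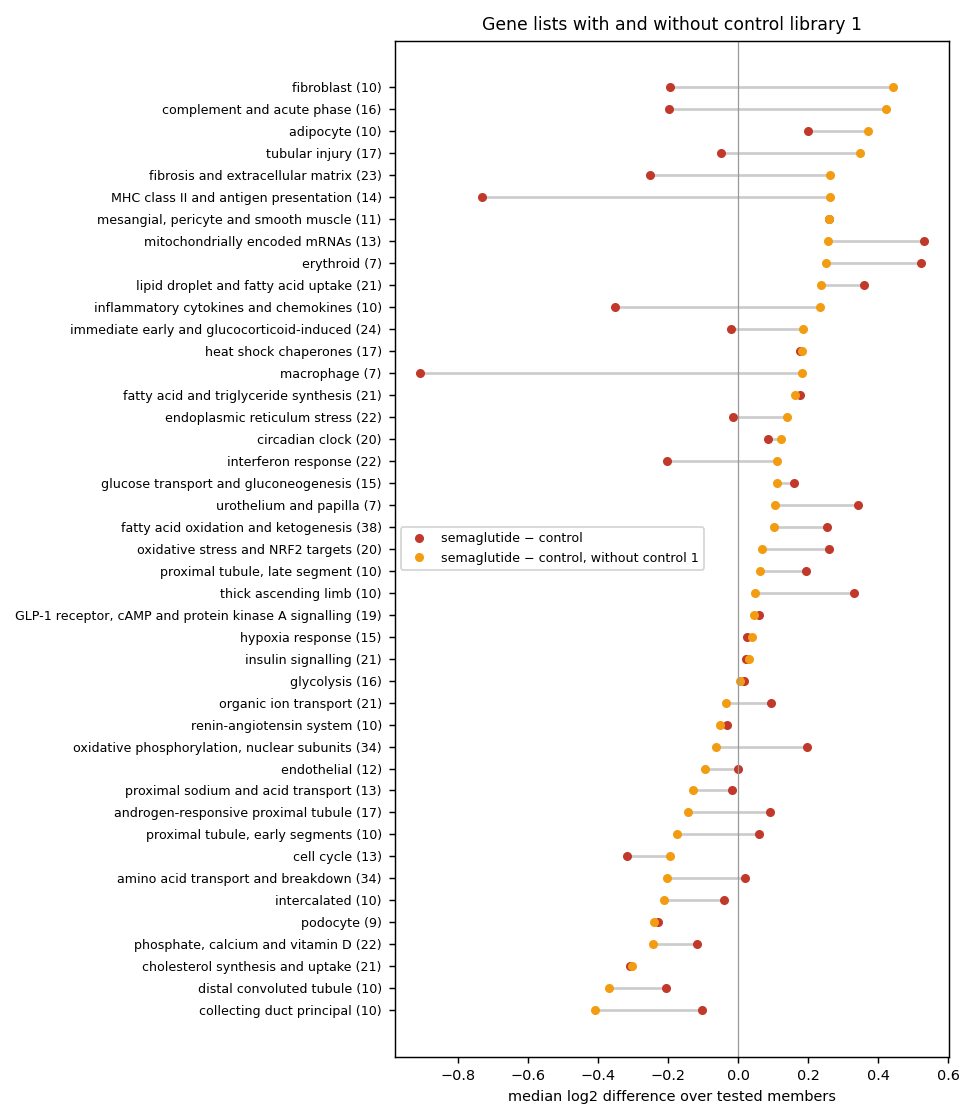
Median log2 difference, semaglutide minus control (horizontal axis), over the tested members of the 43 gene lists with at least 5 tested members (number in brackets), with all libraries and without control 1. Macrophage genes lie at -0.91 and 0.18, and cholesterol genes at -0.31 and -0.30.

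Mitochondrially encoded mRNAs took up 13 genes of the test, all 13 with a higher mean (median 0.53, and 0.26 without control 1) and none at an unadjusted p under 0.05. Their share of summed FPKM was 41.3 ± 7.15% in semaglutide kidneys and 33.8 ± 7.22% in control kidneys (SD, n = 4 each), a difference of 7.52 percentage points with an exact two-sided permutation p = 0.257, where 0.0286 is the smallest possible. Without control 1 the difference was 3.98 (exact permutation p = 0.457). Nuclear genes of oxidative phosphorylation had 32 of 34 means higher with all libraries (median 0.20) and 6 of 34 without control 1 (median -0.06). In trained mice none of the 13 mitochondrial mRNAs had a higher mean (median -0.45), and the share was highest in HIIT 1 and HIIT 2, at 60.5% and 58.6%.

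Genes of the circadian clock, the daily timer of tubule transport, had differences of both signs. Per2, a repressor arm gene, was at 3.14, 3.05, 3.35 and 4.02 FPKM in semaglutide kidneys, against 1.59, 2.81, 1.104 and 1.99 in control kidneys, without overlap (log2 difference 0.64 ± 0.21, and 0.64 ± 0.21 in trained mice). Npas2, a partner of Arntl, averaged 0.5396 ± 0.265 FPKM in semaglutide kidneys, against 1.25 ± 0.499 in control kidneys (log2 difference -0.54 ± 0.17). The clock list had 2 members higher and 1 lower of 20 at unadjusted p under 0.05 (median 0.09), where 2.48% and 1.79% of all genes were. In trained mice 8 were higher and 2 lower (median 0.36), where 3.35% and 2.5% of all genes were. The hour at which tissue was taken is not known here. How many genes passed in combined against HIIT depended on the processing, as given below. Coq10b, a mitochondrial coenzyme Q carrier chosen after its values were seen, was among the 2 that passed in the unweighted fit with all libraries (0.0173%). It was at 24.5, 22.6, 27.5 and 24.99 FPKM in combined kidneys, against 14.4, 15.2, 14.96 and 14.04 in HIIT kidneys, and at 19.9, 20.6, 22.5 and 20.9 FPKM in semaglutide kidneys, against 12.7, 16.3, 12.998 and 16.7 in control kidneys, with no overlap in either pair (log2 difference 0.72 ± 0.11 and 0.50 ± 0.11).

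Cell cycle genes had mostly lower means. Mcm3, a subunit of the replication helicase, averaged 1.201 ± 0.323 FPKM in semaglutide kidneys, against 2.97 ± 1.95 in control kidneys (log2 difference -0.76 ± 0.30), with control 1 the highest, and had a log2 difference of -0.46 ± 0.25 without that library. Ccnd1, the cyclin of the first growth phase, averaged 88.7 ± 6.34 FPKM in semaglutide kidneys, against 109 ± 33.9 in control kidneys (log2 difference -0.24 ± 0.21, and -0.51 ± 0.13 without control 1). Of 13 tested cell cycle genes 2 had a higher mean (median -0.32, and -0.20 without control 1). Genes induced by the oxidant sensor NRF2 had 17 of 20 means higher (median 0.26), with Nqo1 at 0.75 ± 0.32, Gclm at 0.44 ± 0.19 and Gclc at 0.34 ± 0.16. Without control 1 these 3 were at 0.42 ± 0.27, 0.25 ± 0.17 and 0.17 ± 0.12, the median was 0.07 and none was past an unadjusted p of 0.05. Bnip3, a receptor for the removal of mitochondria, was at 106, 98.02, 98.4 and 111 FPKM in semaglutide kidneys, against 49.8, 90.3, 78.6 and 82.8 in control kidneys, without overlap (log2 difference 0.49 ± 0.17, 0.30 ± 0.13 without control 1, and 0.53 ± 0.17 in trained mice).

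The 18 genes that passed in the weighted fit were read again in combined against HIIT kidneys, none of which enters the first difference. All 16 kidney libraries entered the fit that picked the 18. The combined and HIIT libraries thus helped set its spread and weights, and the second reading is not independent of that choice. Of the 18, 16 had the same sign there and 9 of these an unadjusted p under 0.05, where 5.85% of all genes had one in either direction. The share of all genes with the same sign in both comparisons was not counted. The 9 included Aacs, Cyp24a1, Fam102a, Gstp3, Sfrp1, Slc8a1, Tgm1 and Tmem252. Cyp27b1 was at 14.5, 34.7, 37.2 and 32.6 FPKM in combined kidneys, against 25.4, 18.5, 17.9 and 8.38 in HIIT kidneys. Combined 1 lay within the HIIT range and the other 3 above it (log2 difference 0.74 ± 0.37). The interaction for Cyp27b1 was -1.42 ± 0.52, at an unadjusted limma p of 0.0144. Of the 2 with the opposite sign, Tsc22d1 was at 103, 98.05, 114 and 89.6 FPKM in combined kidneys, against 139.9, 124, 107 and 115 in HIIT kidneys. Its interaction was -0.91 ± 0.19, at an unadjusted limma p of 0.000204. No gene passed the interaction test over all genes, where 304 (2.63%) had an unadjusted p under 0.05, and 8 of the 18 were among them. The interaction contains the difference on which the 18 were picked. That choice itself favours them there, so their count is not a separate result.

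**Figure D5:**
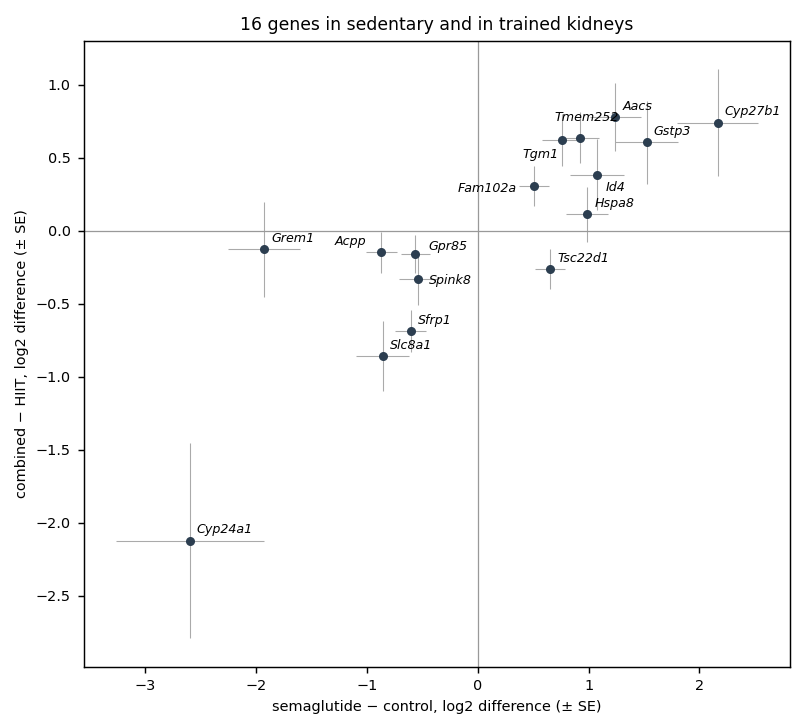
Log2 difference (± SE) of 16 genes that passed in the weighted fit, in semaglutide minus control (horizontal axis) and in combined minus HIIT (vertical axis), both from the unweighted limma fit. Aacs lies at 1.24 and 0.78 and Cyp24a1 at -2.60 and -2.12, while Tsc22d1 (-0.26) has the opposite sign in the trained mice.

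The calls rest on weighting the libraries. With all 16 libraries and no weights none passed after scaling with a pseudocount of 1, and Grem1 alone passed with no scaling or with a pseudocount of 0.1. With HIIT 4, the other library of low weight (0.209), left out of the unweighted fit, 5 genes passed, among them Acpp, Cyp27b1, Grem1 and Hspa8.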

How the data were processed

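Poly(A) RNA of kidney, extracted with TRIzol per the labels' protocols, was sequenced as stranded paired-end libraries. The authors deposited 1 table of kidney FPKM. StringTie 2.1.4, featureCounts 2.0.1, STAR 2.7.9a, Trimmomatic 0.36, FastQC, CASAVA and build GRCm39 are listed, with no roles, in the submitters' processing notes. Filters, how counting used strand, and the part of the kidney taken are not given in the sources used. Of 133 genes chosen to be named, 132 were found in the GENCODE vM21 annotation, 49 lie across a gene of the other strand and 17 across one of the same strand, so their FPKM may hold reads of a neighbour.

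From the deposited FPKM, 1853 rows without a gene name were dropped, and 11551 genes with FPKM of at least 1 in at least 4 of 16 kidney libraries were kept. Libraries were scaled by median ratio, and log2(FPKM + 1) was fitted with limma 3.58.1 (R 4.3.3, empirical Bayes with an intensity trend, Benjamini-Hochberg adjustment over all genes tested, threshold 0.05). All 16 libraries (4 groups of 4) shared 1 estimate of spread. The mitochondrial share was compared by an exact permutation test on unscaled FPKM. The scripts were tested on simulated data. Python 3.11.15 and matplotlib 3.10.9 drew the plots.

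Depth is unknown. In 3794 genes with 1 annotated transcript, the best step made 23.3 to 34.0% of low values whole within 0.05, too few to recover reads, so no count test was run. No libraries held identical values, and the highest correlation between libraries was 0.988.

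Named genes were, in the fit with all libraries and that without control 1, up to 12 in each direction that passed without overlap, filled to 6 by the smallest p among genes without overlap. To these came the 5 smallest interaction p in each direction, up to 4 members of each list with an unadjusted p under 0.05 in either fit, and a set of receptors, transporters and markers. Genes said to be chosen after their values were seen fall outside this rule, as do Jchain, Lyz2, Adipoq, Fabp4 and Col1a1, chosen in the same way. Many of the 18 of the weighted fit are named by the rule. Others, such as Fam102a, Id4 and Tgm1, are named only because they passed in that fit. Some genes that the rule names are not reported here. The comparison, the gene lists and the tests were chosen with earlier results of these data known. Lists with at least 5 tested members are described by counts and medians, with no set test. Alternatives were no scaling, a pseudocount of 0.1, no filter, a replicate block, the compared groups alone, library weights (arrayWeights), robust moderation and leaving out each library. Leaving out HIIT and combined libraries, weights without control 1, and control 1 with HIIT 4 left out were added after seeing the data. Promoters are those of RefSeq on GRCm38.p6, which differs from the build of the table, and carry their own coordinates.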

Additional observations from a re-analysis of the deposited data

Results flagged for a closer look

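In 44 of 334 values compared over 4 libraries, 1 library stood apart from the other 3, which means that its gap to the nearest, divided by the range of the group, exceeded the 95% critical value of Dixon (chance alone gives about 1 in 20). The numbers below are these ratios.

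Among semaglutide kidneys, semaglutide 2 stood highest in Cyp4a10 (0.863) and Insr (0.886) and lowest in Slc7a8 (0.844). Semaglutide 4 stood highest in Fasn (0.869) and Plin5 (0.841).

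Among control kidneys, control 1 was the library apart in all the other cases. It was highest in the immune genes H2-DMa (0.912), Icam1 (0.846), Jchain (0.929), Lyz2 (0.849) and Tnfrsf1a (0.857), in the acute phase genes C3 (0.918), Fga (0.913), Fgg (0.887) and Lcn2 (0.831), and in Col1a1 (0.927), Cry1 (0.861), Plin2 (0.85) and Xbp1 (0.888). It was lowest in Acacb (0.874), Car4 (0.924), Cubn (0.861), Cyp4a10 (0.871), Gclc (0.914), Pdzk1 (0.875), Slc22a7 (0.91), Slc34a1 (0.958) and Slc5a2 (0.865), most of them transporters and enzymes of the proximal tubule. It was also lowest in Bmp7 (0.95), Calb1 (0.874), Ccnd1 (0.892), Scnn1b (0.952) and Slc8a1 (0.835), which include the distal tubule genes Calb1, Slc8a1 and Scnn1b.

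The same library stood apart in list medians. It was highest in complement and acute phase (0.883), fibroblast (0.854), fibrosis and extracellular matrix (0.858), inflammatory cytokines and chemokines (0.874), interferon response (0.872), macrophage (0.912) and MHC class II and antigen presentation (0.911). It was lowest in amino acid transport and breakdown (0.84), distal convoluted tubule (0.874), erythroid (0.852), organic ion transport (0.858) and thick ascending limb (0.861).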

How the results depend on the processing

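The count of genes called in semaglutide against control was 0, and stayed 0 with no filter, the replicate block, only the compared groups, robust moderation, and control 1 with semaglutide 4 left out. It was 1 (Grem1) with no scaling and 1 (Grem1) with a pseudocount of 0.1. It was 18 with library weights, 20 with weights and control 1 left out, of which 16 were shared, and 9 with control 1 and HIIT 4 left out, 8 of them among the 18. Leaving out 1 library gave 0 to 5, with 1 (Grem1) without HIIT 2, 5 without HIIT 4 and 0 in each other case. In combined against HIIT, 2 genes became 1 with no scaling, 1 with no filter, 0 with the replicate block, 25 with library weights and 0 to 7 with 1 library left out, 7 without HIIT 4. The interaction gave 1 gene with library weights. The cause was not tested.

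The replicate numbers did not pair the libraries. Deviations of same-numbered libraries correlated at 0.112, 0.133, 0.175 and -0.172 in semaglutide and control, and from -0.298 to 0.173 in combined and HIIT.

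The mitochondrial share, semaglutide against control, differed by 7.52 points, and by 3.98 to 9.81 with 1 library left out, and 7.59 with unnamed rows in the total. Of 129 named genes, 7 changed sign without control 1 and 8 with no scaling. Of 43 list medians, 15 changed sign without control 1 and 5 without semaglutide 4. Unknown depth limits the low genes most, such as Grem1, Acpp and Gpr85, which lie near or under 1 FPKM in semaglutide kidneys.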

Other observations

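Several transport and hormone-response genes outside the groups above also had separate levels. Slc22a7, an organic anion carrier of the late proximal tubule, was at 1.55, 4.38, 0.866 and 1.101 FPKM in semaglutide kidneys, against 0.0365, 0.682, 0.765 and 0.712 in control kidneys, and at 4.58, 3.62, 14.4 and 3.78 FPKM in combined kidneys, against 0.839, 1.04, 2.14 and 1.102 in HIIT kidneys. All 4 treated libraries of each pair lay above their counterparts, with log2 differences of 0.84 ± 0.37 and 1.57 ± 0.37 that did not pass in limma. Slc22a4, a carrier of ergothioneine, was at 10.9, 11.5, 10.01 and 9.99 FPKM in semaglutide kidneys, against 12.6, 14.2, 16.1 and 13.7 in control kidneys, without overlap (log2 difference -0.38 ± 0.14), and Timd2, a ferritin receptor, averaged 15.7 ± 3.67 FPKM in semaglutide kidneys, against 24.1 ± 3.64 in control kidneys, also without overlap (log2 difference -0.61 ± 0.21). Kap, an androgen-induced transcript of the proximal tubule, was at 2702, 6269.5, 1936 and 2517 FPKM in semaglutide kidneys, against 639, 2317, 2699 and 1617 in control kidneys. It varied several-fold within each group, and the 17 tested androgen-responsive genes had a median of 0.09, and -0.15 without control 1.

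Among the genes with the smallest interaction p, none of which passed in limma, several had differences of opposite sign in sedentary and trained mice. Adal, an adenosine deaminase-like enzyme, had a log2 difference of 0.30 ± 0.10 in sedentary and -0.37 ± 0.10 in trained mice (interaction -0.67 ± 0.15). Fbh1, a DNA helicase, had log2 differences of 0.46 ± 0.12 and -0.32 ± 0.12, and Niban1 had log2 differences of -0.60 ± 0.14 and 0.28 ± 0.14. Hdc, which makes histamine, was at 2.25, 1.53, 1.52 and 1.72 FPKM in semaglutide kidneys, against 8.09, 3.33, 1.81 and 4.71 in control kidneys, and at 2.12, 3.59, 3.08 and 8.23 FPKM in combined kidneys, against 1.12, 2.15, 1.72 and 1.78 in HIIT kidneys (interaction 1.73 ± 0.46). Sgk1, the aldosterone-induced kinase, had log2 differences of -0.58 ± 0.28 and 0.58 ± 0.28 (interaction 1.16 ± 0.40). Erythroid genes had 7 of 7 means higher, with a median of 0.52, and 0.25 without control 1.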
